A study of Homo sapiens with 38 samples.

Results

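MS177, a proteolysis-targeting chimera (PROTAC) directed at the histone methyltransferase EZH2, was compared with C24, a catalytic EZH2 inhibitor, in BT-549 cells. The comparison rests on 6 of the 38 RNA-seq libraries of the series: 2 with MS177 and 2 with C24, which were compared with each other, and the 2 DMSO libraries that served as the vehicle control for both. Its members were all genes listed in both deposited BT-549 tables for these compounds, 16646 of the 17105 in the MS177 table and the 17136 in the C24 table, and 16447 of them passed a minimum of 10 normalized counts in at least 2 of the 6 libraries and were tested. BT-549 is an established human triple-negative breast cancer line with mesenchymal features. The cells had been kept for 48 h in 2.5 uM MS177, 2.5 uM C24 or 0.125% DMSO, and the labels give no genetic change for any group. All groups grew in RPMI medium with serum and insulin, and libraries were made from polyadenylated RNA. The labels number the libraries 1 and 2 in each group and do not say whether these were separate cultures, so the p-values measure the spread between these samples, which may be technical.

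Polycomb repressive complex 2 (PRC2), of which EZH2 is the enzyme, together with EED and SUZ12 methylates lysine 27 of histone H3 at silenced developmental genes. A catalytic inhibitor blocks the enzyme and leaves the protein in place, whereas a PROTAC recruits an E3 ubiquitin ligase to its target so that the protein is sent to the proteasome. EZH2 also has functions outside methylation, among them interactions with transcription factors, and the design of the series sets a degrader against an inhibitor of the same protein. Several transcription programmes serve as readouts below: ATF4, which induces amino acid supply genes under stress; FOXM1 and MYBL2, which drive mitotic genes; SREBP factors, which drive sterol and fatty acid synthesis; and NF-kB, which drives cytokine genes.

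The libraries held between 35332201 and 49871789 reads in listed genes, so counting error was small for all but the lowest genes. Replicates of a group correlated at 0.984 to 0.986 over the 16447 tested genes, and no pair of libraries agreed within sampling noise. Markers of the mesenchymal state (VIM, ZEB1, AXL, COL1A1 and 4 others) summed to between 128140 and 157210 normalized counts in every library, and CD14 was the single member of the list of blood and endothelial markers present in both tables, at 9.36 to 46.5. ESR1, PGR and EPCAM were not among the genes of both tables. Mitochondrially encoded transcripts took 1.69% and 1.39% of the MS177 libraries, against 2.62% and 1.97% of the C24 libraries and 2.45% and 2.37% of the DMSO libraries. The part of this shift in the results was not tested. Values below are normalized counts, and differences are log2 differences of normalized counts plus 1, given ± SE, from 1 limma fit with Benjamini-Hochberg adjustment over the 16447 genes. The added 1 understates the change of low genes.

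MS177 and C24 left BT-549 cells with different transcriptomes. Of the 16447 genes, 5494 (33.4%) differed between the compounds at an adjusted p under 0.05, 2607 (15.9%) higher with MS177 and 2887 (17.6%) lower. Among these, 835 were more than 2-fold higher and 1320 more than 2-fold lower, and the median absolute log2 difference over all tested genes was 0.42. Against DMSO, MS177 changed 4644 genes (28.2%), 2148 higher (13.1%) and 2496 lower (15.2%). C24 changed 11 genes against DMSO (0.0669%), 8 higher (0.0486%) and 3 lower (0.0182%), with 1445 genes (8.79%) at an unadjusted p under 0.05 and a median absolute log2 difference of 0.19. Both comparisons use the same 2 DMSO libraries and are given side by side below, while the tests of a difference between compounds are those of MS177 against C24. Without C24 replicate 1 the count of genes that differed between the compounds was 2255 of 16341. For MS177 against DMSO it was 2732 without DMSO replicate 1 and 2720 without DMSO replicate 2. For C24 against DMSO it was 24 when those libraries were fitted alone, 1 with either C24 library left out, 7 without DMSO replicate 1, 20 without MS177 replicate 1 and 19 without MS177 replicate 2. When libraries were scaled to the total of listed genes, 36.6% of the called genes were higher with MS177 (1920 higher and 3327 lower), against 47.5% in the scaling used here. The small count for C24 against DMSO also depended strongly on how the replicate numbers were modelled, as given with the processing below.

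**Figure D1:**
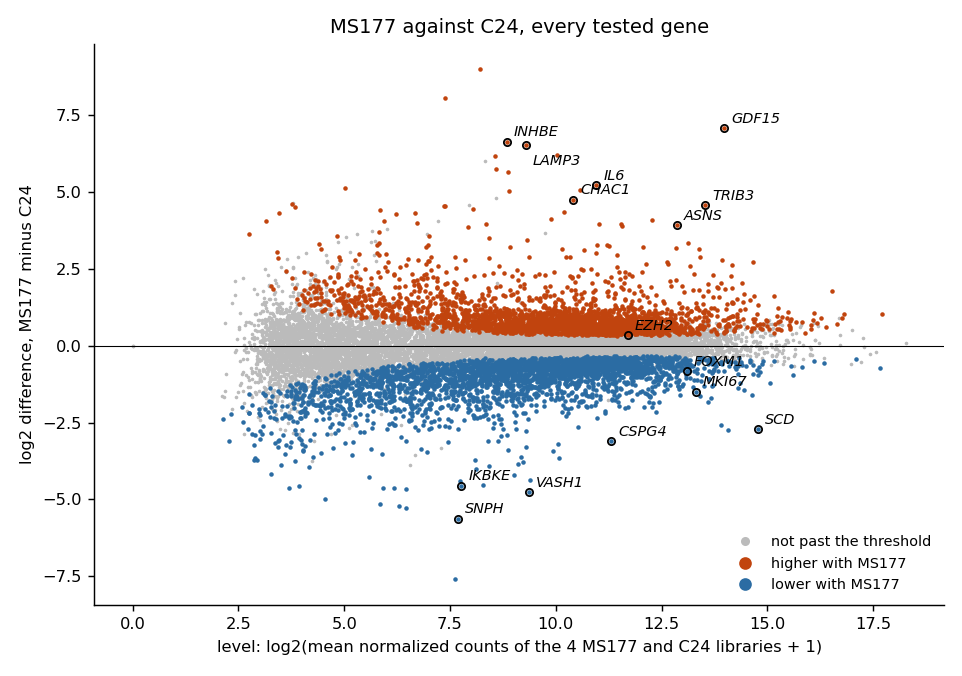
Log2 difference of MS177 minus C24 (vertical axis) against log2 of the mean normalized count of the 4 MS177 and C24 libraries plus 1 (horizontal axis) for the 16447 genes tested, with the 5494 past the threshold in colour. Among the 15 genes circled and labelled for orientation, which are not the most extreme of all, GDF15, INHBE and LAMP3 lie farthest above 0 and SNPH, VASH1 and IKBKE farthest below it.

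The 12 largest rises with MS177 over C24 included 4 genes of secreted signalling proteins, GDF15, INHBE, FGF19 and IL6, and the xenobiotic-metabolising enzyme CYP1A1. GDF15, a stress-induced cytokine of the TGF-beta family, had 29036 and 35086 in the MS177 libraries, against 235 and 233 in the C24 libraries and 127 and 134 in the DMSO libraries. FGF19, an endocrine fibroblast growth factor, had 736 and 765 in the MS177 libraries, against 8.72 and 10.2 in the C24 libraries and 11.6 and 10.4 in the DMSO libraries. INHBE, which encodes an inhibin beta chain, had 965 and 849 in the MS177 libraries, against 5.81 and 11 in the C24 libraries and 6.34 and 4.16 in the DMSO libraries. In all of these genes both MS177 libraries lay far above the 4 others. The C24 libraries lay near DMSO for FGF19 and INHBE and above both DMSO libraries for GDF15. Their log2 differences were 7.09 ± 0.13 (adjusted p = 1.6e-06, limma) for GDF15, 6.17 ± 0.24 (adjusted p = 1.97e-05, limma) for FGF19 and 6.65 ± 0.35 (adjusted p = 5.85e-05, limma) for INHBE. LAMP3, a lysosome-associated membrane protein, stood at 1406 and 1072 with MS177, 12.6 and 11.7 with C24 and 8.45 and 10.4 with DMSO. KLHDC7B, a kelch-domain protein, stood at 2240.4 and 1873 with MS177, 31.0 and 22.7 with C24 and 23.2 and 21.8 with DMSO. The MS177 libraries lay far above the others for both genes, and their log2 differences were 6.55 ± 0.25 and 6.22 ± 0.22. IL20RB, a chain of cytokine receptors, differed by 5.65 ± 0.23 and UNC5B, a netrin receptor, by 5.07 ± 0.16. HKDC1, a hexokinase family member, differed by 5.04 ± 0.33. RNA5-8SN2 and AC011511.4 were also among these 12, and both were listed at 0 in both C24 libraries. RNA5-8SN2 had 875 and 295 with MS177 and 185 and 173 with DMSO, and it is a ribosomal RNA gene with near-identical copies, so its value is uncertain. AC011511.4 had 137 and 521 with MS177 and 891 and 132 with DMSO, so its 2 DMSO libraries lay apart.

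The 12 largest falls took in genes that were nearly silent with MS177. SNPH, which encodes the mitochondrial anchor syntaphilin, had 7.48 and 6.78 in the MS177 libraries, against 431 and 371 in the C24 libraries and 237 and 256 in the DMSO libraries. VASH1, which encodes the tubulin-detyrosinating protein vasohibin-1, had 47.7 and 43.6 in the MS177 libraries, against 1396 and 1134 in the C24 libraries and 777 and 998 in the DMSO libraries. IKBKE, which encodes an IkB-kinase-related kinase of innate immune signalling, had 20.6 and 13.6 in the MS177 libraries, against 449 and 386 in the C24 libraries and 398 and 483 in the DMSO libraries. In each of them the MS177 libraries lay far below the other 4. SNPH was 56.3-fold lower with MS177 than with C24, with a log2 difference of -5.63 ± 0.19 (adjusted p = 1.37e-05, limma). For VASH1 the log2 difference was -4.76 ± 0.18 (adjusted p = 1.86e-05, limma) and for IKBKE it was -4.56 ± 0.23 (adjusted p = 5.19e-05, limma). Others of this kind were SYTL4, a synaptotagmin-like protein of vesicle traffic (-4.67), the homeobox gene TLX2 (-4.63), the sugar transporter SLC45A1 (-4.62), the hyaluronan and proteoglycan link protein HAPLN3 (-4.54), the phosphatase INPP5J (-5.28), AC087721.2 (-5.16) and the monoacylglycerol hydrolase ABHD6 (-4.41). SMIM11B, which has a near-identical copy in the annotation that can share its reads, had 0 and 2.90 in the MS177 libraries, against 317 and 462 in the C24 libraries and 570.2 and 6.24 in the DMSO libraries, so its DMSO libraries lay at opposite ends, and its call was lost in 9 of 20 alternative settings. GP1BB had 14 and 0 in the MS177 libraries, against 114 and 182 in the C24 libraries and 216 and 34.3 in the DMSO libraries and lost its call in 8 of 20. AC087721.2 lost its call without C24 replicate 1.

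Messenger RNAs of the complex that both compounds address differed little between them. Of 13 PRC2 genes tested, EZH2 was higher with MS177, PHF19 was lower and 11 did not pass the test, beside 33.4% of all genes called, with a median log2 difference of 0.09 against 0.003 over all tested genes. EZH2 (chr7:148807383-148884321, minus strand, hg38) had 3798 and 3614 in the MS177 libraries, against 2857 and 3005 in the C24 libraries and 2899.6 and 3051 in the DMSO libraries. The MS177 libraries were the highest, the others overlapped, and the log2 difference was 0.34 ± 0.11 (95% interval 0.08 to 0.59, adjusted p = 0.0484, limma), a call that was lost in 11 of 20 alternative settings. PHF19, a Polycomb-like accessory subunit, had 4288 and 4934 in the MS177 libraries, against 6388 and 6554 in the C24 libraries and 6310.3 and 6057 in the DMSO libraries. Both MS177 libraries were the lowest, with a log2 difference of -0.49 ± 0.12 (adjusted p = 0.0168, limma), and this call was lost in 3 settings. EED, the subunit that reads methylated histone H3, had 1217 and 1477 in the MS177 libraries, against 1245 and 1457 in the C24 libraries and 1911 and 1657 in the DMSO libraries. Here the MS177 and C24 libraries overlapped and both stayed under the DMSO libraries, and the MS177 minus C24 difference was -0.01 ± 0.15 (95% interval -0.36 to 0.35, adjusted p = 0.978, limma). SUZ12, the scaffold subunit, had 5374 and 4839.6 in the MS177 libraries, against 4560.3 and 5038 in the C24 libraries and 4809.8 and 5548 in the DMSO libraries, with overlapping groups and a difference of 0.09 ± 0.13 (95% interval -0.21 to 0.39, adjusted p = 0.619, limma). EZH1, the paralog of EZH2, had 1038 and 799 in the MS177 libraries, against 746 and 662 in the C24 libraries and 687 and 775 in the DMSO libraries, with a difference of 0.37 ± 0.16 (95% interval -0.01 to 0.76, adjusted p = 0.119, limma). These values are of messenger RNA, and protein was not measured in these libraries.

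**Figure D2:**
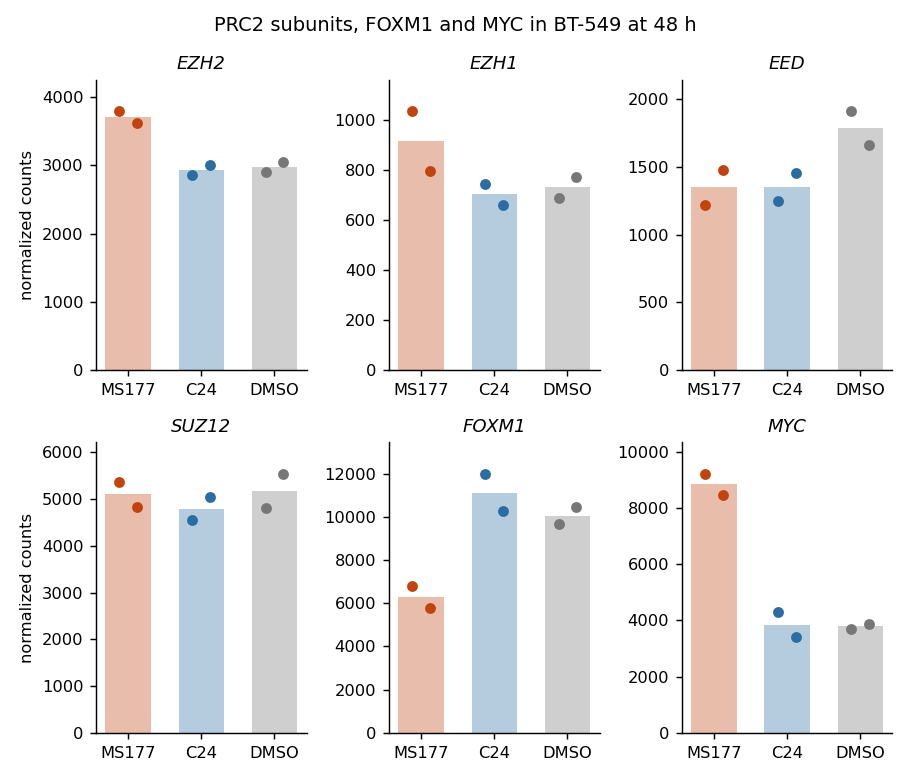
Normalized counts (vertical axes, from 0) of EZH2, EZH1, EED, SUZ12, FOXM1 and MYC in each library, with MS177, C24 and DMSO from left to right, points for the 2 libraries and a bar for their mean. The MS177 libraries lie below the others for FOXM1, above them for MYC, and close to them for SUZ12.

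Among sterol and fatty acid synthesis genes, C24 was higher than DMSO where it passed the test, and MS177 was mostly lower than C24. Of 33 cholesterol synthesis and uptake genes tested, 26 were lower with MS177 than with C24 and 1 was higher, with a median log2 difference of -1.12. Among the 21 genes of the synthesis pathway alone, 20 were lower and their median was -1.14. Against DMSO, 15 of the 33 were lower and 1 was higher with MS177, beside 15.2% and 13.1% of all genes, and 4 were higher with C24. The median of the 21 against DMSO was -0.51 with MS177 and 0.71 with C24. Of the 17 fatty acid synthesis genes, 12 were lower with MS177 than with C24, with a median of -0.72. Their medians against DMSO were -0.26 with MS177 and 0.38 with C24. With MS177 against DMSO, 5 of the 17 were lower, beside 15.2% of all genes, and 12 did not pass. The share called was near the 28.2% of all genes. Of the fatty acid genes, 6 were called without C24 replicate 1.

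HMGCS1, which makes HMG-CoA at the start of the sterol pathway, had 1273 and 1225 in the MS177 libraries, against 4831 and 5427 in the C24 libraries and 1764 and 1810 in the DMSO libraries. MVK, which encodes mevalonate kinase, had 441 and 487 in the MS177 libraries, against 1901 and 1915 in the C24 libraries and 905 and 809.9 in the DMSO libraries. In both genes the C24 libraries were the highest, the MS177 libraries the lowest and no groups overlapped. For HMGCS1 the log2 difference was -2.04 ± 0.12 (95% interval -2.31 to -1.76, adjusted p = 7.01e-05, limma) for MS177 against C24, -0.52 ± 0.12 (adjusted p = 0.0151, limma) for MS177 against DMSO and 1.52 ± 0.12 (adjusted p = 0.0125, limma) for C24 against DMSO. The call for HMGCS1 between MS177 and DMSO was lost with either DMSO library or MS177 replicate 2 left out, and that for INSIG1 with DMSO replicate 1 left out. For MVK the same differences were -2.04 ± 0.13 (95% interval -2.33 to -1.75, adjusted p = 9.24e-05, limma), -0.88 ± 0.13 (adjusted p = 0.00258, limma) and 1.16 ± 0.13 (adjusted p = 0.0411, limma). INSIG1, which holds SREBP factors in the endoplasmic reticulum when sterols are plentiful, had 1591 and 1626 in the MS177 libraries, against 5424 and 5613 in the C24 libraries and 2598 and 2378 in the DMSO libraries. It too was highest with C24 and lowest with MS177, with a difference of -1.78 ± 0.11 (adjusted p = 9.38e-05, limma) between the compounds, -0.63 ± 0.11 (adjusted p = 0.00612, limma) against DMSO with MS177 and 1.15 ± 0.11 (adjusted p = 0.0304, limma) against DMSO with C24.

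SCD, which encodes the stearoyl-CoA desaturase that makes monounsaturated fatty acids, had 8157 and 6546 in the MS177 libraries, against 55518 and 41799 in the C24 libraries and 14820 and 15832 in the DMSO libraries. The groups were again ordered C24, DMSO, MS177 from high to low without overlap, and SCD was 6.62-fold lower with MS177 than with C24 (-2.72 ± 0.18, 95% interval -3.14 to -2.31, adjusted p = 0.00011, limma). Against DMSO its log2 difference was -1.07 ± 0.18 (adjusted p = 0.00486, limma) with MS177 and 1.65 ± 0.18 (adjusted p = 0.0411, limma) with C24. HMGCS1, MVK, INSIG1 and SCD were among the genes that passed the threshold against DMSO with both compounds in opposite directions. FADS2, a desaturase of polyunsaturated fatty acids, had 4672 and 4288 in the MS177 libraries, against 34094 and 26067 in the C24 libraries and 14215 and 13667 in the DMSO libraries, and differed by -2.74 ± 0.15 (adjusted p = 6.86e-05, limma) between the compounds; with C24 against DMSO it did not pass (1.10 ± 0.15, adjusted p = 0.114, limma). FASN, the fatty acid synthase, had 13539 and 10363 in the MS177 libraries, against 36272 and 28462 in the C24 libraries and 12173 and 16124 in the DMSO libraries. Its MS177 libraries overlapped with DMSO and its C24 libraries were the highest, with -1.44 ± 0.21 (adjusted p = 0.00232, limma) between the compounds and -0.24 ± 0.21 (adjusted p = 0.417, limma) for MS177 against DMSO. Another gene that C24 raised over DMSO was LIPG, a secreted phospholipase, at 26.2 and 22.3 with MS177, 89.2 and 91.5 with C24 and 12.7 and 15.6 with DMSO (2.60 ± 0.27, adjusted p = 0.0411, limma for C24 against DMSO). BMS1P4-AGAP5, at 15.9 and 13.6 with MS177, 36.8 and 27.1 with C24 and 0 and 0 with DMSO, and ZBTB45P2, at 29.9 and 31.9 with MS177, 51.4 and 49.0 with C24 and 0 and 0 with DMSO, were also among its rises. The 3 falls with C24 were RNA5-8SN2, AC011511.4 and TGFB2-OT1, all at 0 in both C24 libraries. In the 2 BT-549 libraries treated with MS177N1, not compared here, RNA5-8SN2 had 1654 and 0 and AC011511.4 had 802 and 0. TGFB2-OT1 had 74.0 and 0 there, BMS1P4-AGAP5 19.6 and 0 and ZBTB45P2 12.5 and 43.2. Values of 0 in these genes are therefore uncertain. Of 20 alternative settings the C24 call against DMSO was lost in 4 for HMGCS1, 7 for INSIG1, 10 for SCD, 11 for MVK, 9 for LIPG, 5 for BMS1P4-AGAP5, 2 for ZBTB45P2, 6 for RNA5-8SN2, 11 for AC011511.4 and 9 for TGFB2-OT1, and with either C24 library left out 1 gene in all was called between C24 and DMSO.

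**Figure D3:**
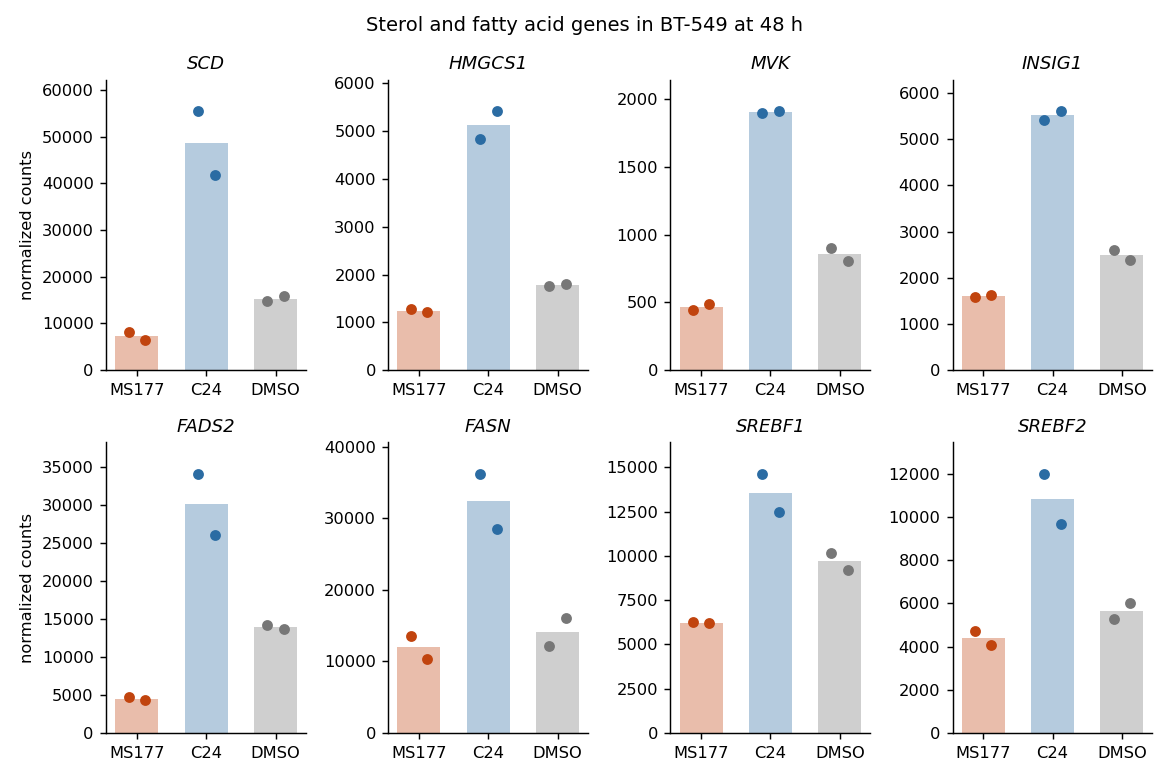
Normalized counts (vertical axes, from 0) of 8 sterol and fatty acid genes, with MS177 left, C24 in the middle and DMSO right, points for the 2 libraries and a bar for their mean. The C24 libraries are the highest in every panel, and the MS177 libraries lie below DMSO in all but FASN, as for SCD with MS177, C24 and DMSO at 8157 and 6546, 55518 and 41799 and 14820 and 15832.

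Among the regulators of the pathway, SREBF2, the factor that drives sterol synthesis genes, had 4728 and 4068 in the MS177 libraries, against 12013 and 9678 in the C24 libraries and 5258 and 6034 in the DMSO libraries, and SREBF1, the factor more tied to fatty acid genes, had 6256 and 6184 in the MS177 libraries, against 14644 and 12447 in the C24 libraries and 10148 and 9216 in the DMSO libraries. The C24 libraries were the highest in both, and MS177 minus C24 was -1.30 ± 0.15 (adjusted p = 0.00114, limma) for SREBF2 and -1.12 ± 0.13 (adjusted p = 0.00102, limma) for SREBF1. Between MS177 and DMSO, SREBF1 was lower (-0.64 ± 0.13, adjusted p = 0.0102, limma) and SREBF2 did not pass (-0.36 ± 0.15, adjusted p = 0.118, limma). SCAP, the escort protein of SREBP factors, had a difference of -0.13 ± 0.13 (adjusted p = 0.464, limma) and INSIG2, the paralog of INSIG1, of 0.25 ± 0.17 (adjusted p = 0.309, limma). MYLIP, an LXR-induced ligase for the LDL receptor, was lower with MS177 (-1.21 ± 0.21, adjusted p = 0.00553, limma), a call lost without C24 replicate 1. NR1H2, an LXR receptor, was the 1 gene of the list that was higher (0.62 ± 0.13, adjusted p = 0.0119, limma), and that call was also lost under some settings. NR1H3 (0.25 ± 0.32) and ABCA1, a cholesterol exporter (0.73 ± 0.27), did not pass.

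The 250 bases before the RefSeq start are shown for 3 of the genes on which C24 and MS177 diverged, chosen after their values were seen, because sterol-responsive promoters are known for SRE and NF-Y elements (RefSeq promoters, GRCh38.p14). They lie at chr10:100346983-100347232 (plus strand) for SCD, chr12:109573544-109573793 (plus strand) for MVK and chr5:43313413-43313662 (minus strand) for HMGCS1, and each is written in the direction of its gene with capitals on matches to TCACNCCA, an SRE-like word, or to CCAAT, the NF-Y word, on either strand.
SCD: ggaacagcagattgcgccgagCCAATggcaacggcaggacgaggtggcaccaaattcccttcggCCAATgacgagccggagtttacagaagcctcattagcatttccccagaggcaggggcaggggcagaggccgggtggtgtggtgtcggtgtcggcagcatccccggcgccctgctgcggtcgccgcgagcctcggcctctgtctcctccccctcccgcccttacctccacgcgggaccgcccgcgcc
MVK: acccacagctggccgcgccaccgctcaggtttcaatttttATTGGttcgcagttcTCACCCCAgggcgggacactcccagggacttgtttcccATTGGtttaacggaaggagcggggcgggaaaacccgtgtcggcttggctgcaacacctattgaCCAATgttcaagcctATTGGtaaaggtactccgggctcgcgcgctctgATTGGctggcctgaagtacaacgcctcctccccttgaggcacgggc
HMGCS1: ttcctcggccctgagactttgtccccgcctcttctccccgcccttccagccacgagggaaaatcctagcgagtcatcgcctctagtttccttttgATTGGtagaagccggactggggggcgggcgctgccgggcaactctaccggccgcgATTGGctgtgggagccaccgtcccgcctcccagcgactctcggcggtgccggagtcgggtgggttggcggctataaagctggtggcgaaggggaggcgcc
TCACNCCA was found once, in MVK, beginning 195 bases before the start, and CCAAT was found 2 times in SCD, 5 times in MVK and 2 times in HMGCS1. A second RefSeq start of HMGCS1 had no match to either word. Among all 35116 RefSeq promoters of the same length, 3.20% held TCACNCCA and 32.0% held CCAAT. A match describes the letters and is not a measured binding site.

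The ATF4 programme was high with MS177 and near the level of DMSO with C24. Of 34 genes of the ATF4 stress response, 28 were higher with MS177 than with C24, with a median log2 difference of 1.70, and among the 20 target genes 18 were higher. Against DMSO 27 of the 34 were higher with MS177, and the medians were 1.63 with MS177 and 0.12 with C24. In the amino acid supply list 38 of 43 genes were higher with MS177 than with C24, with a median of 1.24: 11 of 12 synthesis genes, 17 of 20 aminoacyl-tRNA synthetases and 10 of 11 transporters.

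ATF4 itself had 20249 and 24264 in the MS177 libraries, against 6865 and 8081 in the C24 libraries and 8665 and 7681 in the DMSO libraries, a difference of 1.57 ± 0.15 (adjusted p = 0.000467, limma). DDIT3, which encodes the stress factor CHOP, had 6729 and 8606 in the MS177 libraries, against 839 and 798 in the C24 libraries and 966 and 801 in the DMSO libraries. ATF3, a stress-induced repressor of the same family, had 4086 and 3714 in the MS177 libraries, against 258 and 235 in the C24 libraries and 213 and 234 in the DMSO libraries. In all of these genes the MS177 libraries lay above the others and the C24 libraries near DMSO, with differences of 3.22 ± 0.16 (adjusted p = 4.61e-05, limma) for DDIT3 and 3.98 ± 0.13 (adjusted p = 1.17e-05, limma) for ATF3. NUPR1, a stress-induced chromatin protein (3.91 ± 0.23), CEBPG, a partner of ATF4 (1.91 ± 0.11), ATF5 (0.96 ± 0.12) and CEBPB (0.83 ± 0.15) were higher too, CEBPB not without C24 replicate 1. PPP1R15A, the phosphatase subunit that restores translation after stress, had 18155 and 20288 in the MS177 libraries, against 1986 and 2364 in the C24 libraries and 1995 and 1996 in the DMSO libraries. The kinases that phosphorylate eIF2-alpha upstream of ATF4 did not pass at the mRNA level: EIF2AK1 differed by -0.17 ± 0.14 (adjusted p = 0.398, limma), EIF2AK2 by -0.25 ± 0.15 (adjusted p = 0.238, limma), EIF2AK3 by -0.37 ± 0.16 (adjusted p = 0.106, limma) and EIF2AK4 by -0.06 ± 0.12 (adjusted p = 0.719, limma).

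TRIB3, an ATF4-induced pseudokinase that feeds back on ATF4 and is listed among its regulators, had 21406 and 24122 in the MS177 libraries, against 913 and 991 in the C24 libraries and 916 and 832 in the DMSO libraries. CHAC1, which degrades glutathione, had 2566 and 2705 in the MS177 libraries, against 103 and 90.7 in the C24 libraries and 119 and 115 in the DMSO libraries. In both genes the C24 and DMSO libraries lay close together, far below MS177. SESN2, a leucine sensor that restrains mTORC1, had 9816 and 8847 in the MS177 libraries, against 608 and 478 in the C24 libraries and 435 and 526 in the DMSO libraries. ASNS, which makes asparagine, had 13700 and 14078 in the MS177 libraries, against 870.2 and 970.4 in the C24 libraries and 1112 and 1030.3 in the DMSO libraries. SESN2 and ASNS showed the same pattern, and MS177 did not overlap with C24 in any of these genes. Log2 differences were 4.58 ± 0.12 (adjusted p = 1.05e-05, limma) for TRIB3, 4.76 ± 0.14 (adjusted p = 1.1e-05, limma) for CHAC1, 4.11 ± 0.16 (adjusted p = 2.06e-05, limma) for SESN2 and 3.92 ± 0.12 (adjusted p = 1.1e-05, limma) for ASNS. PSAT1 of serine synthesis (2.27 ± 0.12), CBS of transsulfuration (2.35 ± 0.11), the tryptophanyl-tRNA synthetase WARS1 (2.89 ± 0.13) and the glycyl-tRNA synthetase GARS1 (2.29 ± 0.12) followed the same pattern.

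Promoters of the 4 genes with the largest rises among the listed targets that have an entry in the table are printed to show where letters of the ATF4-type word TGATGNAA and of CCAAT occur, in capitals on either strand, and the TTTAAA in capitals in CHAC1 is a word searched in mitotic promoters. They lie at chr19:18385908-18386157 (plus strand) for GDF15, chr15:40953221-40953470 (plus strand) for CHAC1, chr1:28259268-28259517 (plus strand) for SESN2 and chr7:97872409-97872658 (minus strand) for ASNS, and hold the 250 bases before each start.
GDF15: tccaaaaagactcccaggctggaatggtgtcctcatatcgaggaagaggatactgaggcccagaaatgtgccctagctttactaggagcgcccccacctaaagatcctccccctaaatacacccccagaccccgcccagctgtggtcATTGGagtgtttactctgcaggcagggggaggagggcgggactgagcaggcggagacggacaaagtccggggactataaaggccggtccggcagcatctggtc
CHAC1: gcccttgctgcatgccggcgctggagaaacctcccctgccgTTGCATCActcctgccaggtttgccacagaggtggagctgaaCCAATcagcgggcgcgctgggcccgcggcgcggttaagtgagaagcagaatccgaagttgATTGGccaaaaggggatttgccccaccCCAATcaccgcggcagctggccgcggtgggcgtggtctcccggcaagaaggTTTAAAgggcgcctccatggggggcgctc
SESN2: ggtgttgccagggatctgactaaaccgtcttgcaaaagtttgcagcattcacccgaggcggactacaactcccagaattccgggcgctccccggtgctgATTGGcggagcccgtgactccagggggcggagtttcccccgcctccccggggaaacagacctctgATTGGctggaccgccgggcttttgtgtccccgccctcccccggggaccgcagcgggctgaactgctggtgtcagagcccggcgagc
ASNS: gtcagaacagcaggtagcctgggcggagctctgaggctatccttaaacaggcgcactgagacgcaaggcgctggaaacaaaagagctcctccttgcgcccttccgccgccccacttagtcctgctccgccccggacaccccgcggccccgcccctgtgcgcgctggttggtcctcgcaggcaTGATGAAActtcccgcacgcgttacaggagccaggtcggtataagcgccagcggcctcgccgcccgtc
TGATGNAA occurred in CHAC1, beginning 209 bases before the start on the opposite strand, and in ASNS, beginning 68 bases before it. Of all promoters of that length, 3.14% held it. A second start of ASNS in the table had no match. CCAAT was found 1 time in GDF15, 3 times in CHAC1 and 2 times in SESN2, and not in ASNS.

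Genes of the endoplasmic reticulum stress response went both ways. Of 32 genes for chaperones, degradation and sensing, 11 were higher with MS177 than with C24 and 7 lower, beside 15.9% and 17.6% of all genes. Their median was -0.02 and changes sign between scalings. Of 16 chaperone genes 3 were higher and 6 lower, of 11 genes of ER-associated degradation 5 were higher and 1 lower, and of 5 sensor genes 3 were higher, and a difference between roles was not tested. HSPA5, the main luminal chaperone, had 142570 and 151920 in the MS177 libraries, against 41491 and 43185 in the C24 libraries and 46722 and 41934 in the DMSO libraries, and XBP1, whose spliced form drives the response, had 10187 and 11711 in the MS177 libraries, against 1520.4 and 1809.8 in the C24 libraries and 1933 and 1779.9 in the DMSO libraries. MS177 libraries were the highest in both, with differences of 1.80 ± 0.13 (adjusted p = 0.000188, limma) and 2.72 ± 0.14 (adjusted p = 5.03e-05, limma). HERPUD1 of ER-associated degradation (2.19 ± 0.12) and the co-chaperone DNAJB9 (1.50 ± 0.13) were higher as well. CALR, a calcium-binding chaperone, had instead 41768 and 46758 in the MS177 libraries, against 72981 and 68370 in the C24 libraries and 76640 and 67619 in the DMSO libraries, with MS177 the lowest (-0.68 ± 0.14, adjusted p = 0.0103, limma). PDIA4 (-0.53 ± 0.12), MANF (-0.68 ± 0.16) and SDF2L1 (-1.04 ± 0.28) were lower too. CALR and PDIA4 lost their calls without C24 replicate 1, MANF with either C24 library left out and SDF2L1 in 4 settings. The list had 5 higher and 1 lower without C24 replicate 1, 7 and 3 without C24 replicate 2, and 7 and 4 without MS177 replicate 1.

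Mitotic genes were lower with MS177 than with C24. Of 63 FOXM1 and G2/M genes tested, 48 were lower and 2 higher, with a median of -0.62 between the compounds. Against DMSO the medians were -0.64 with MS177 and -0.02 with C24. By role, 32 of 38 spindle and chromosome genes and 14 of 19 kinase and cyclin genes were lower. The list had 31 lower and 1 higher without C24 replicate 1, and 33 lower and 1 higher without C24 replicate 2. The counts are relative to all RNA of the culture, so fewer cells in mitosis and less RNA per cell cannot be told apart.

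FOXM1, the forkhead factor of mitotic transcription (chr12:2857681-2877155, minus strand, hg38), had 6809 and 5804 in the MS177 libraries, against 12005 and 10250 in the C24 libraries and 9649 and 10455 in the DMSO libraries. MYBL2, its partner in the same complex, had 24848 and 25804 in the MS177 libraries, against 36009 and 34721 in the C24 libraries and 38795 and 36877 in the DMSO libraries. The MS177 libraries were the lowest for both, with -0.82 ± 0.14 (adjusted p = 0.00458, limma) for FOXM1 and -0.48 ± 0.12 (adjusted p = 0.0204, limma) for MYBL2, whose call was lost with any 1 of the MS177 and C24 libraries left out. KIF20A, a mitotic kinesin, had 3504 and 2888 in the MS177 libraries, against 9969.5 and 7652 in the C24 libraries and 8188 and 8657 in the DMSO libraries. PLK1, a mitotic kinase, had 5390.3 and 5432 in the MS177 libraries, against 10031 and 9595 in the C24 libraries and 8103 and 8649.7 in the DMSO libraries. For KIF20A the C24 libraries lay on either side of the DMSO libraries and for PLK1 above them, and the MS177 libraries lay below all of them for both, with differences of -1.46 ± 0.16 (adjusted p = 0.000927, limma) and -0.86 ± 0.11 (adjusted p = 0.00148, limma). DLGAP5, a spindle protein (-0.98 ± 0.12), and CDCA8 of the chromosomal passenger complex (-0.89 ± 0.11) were lower by similar amounts. The 2 genes that were higher, LIN52 (0.70 ± 0.13) and LIN37 (0.52 ± 0.16, lost in some settings), encode subunits of the complex that represses or, with MYBL2, activates these genes. LIN9 (0.13 ± 0.12) and LIN54 (-0.14 ± 0.14) did not pass.

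The promoters of the 3 genes of this list with the largest falls that have an entry show where the CHR words TTTGAA or TTTAAA and the NF-Y word CCAAT occur, in capitals on either strand, in the 250 bases before the start: chr10:128126424-128126673 (minus strand) for MKI67, chr5:138178862-138179111 (plus strand) for KIF20A and chr1:197146670-197146919 (minus strand) for ASPM.
MKI67: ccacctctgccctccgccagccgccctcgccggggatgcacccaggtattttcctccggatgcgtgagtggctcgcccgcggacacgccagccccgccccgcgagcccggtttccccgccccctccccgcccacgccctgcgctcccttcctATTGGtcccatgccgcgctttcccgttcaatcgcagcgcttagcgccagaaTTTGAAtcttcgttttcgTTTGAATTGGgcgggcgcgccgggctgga
KIF20A: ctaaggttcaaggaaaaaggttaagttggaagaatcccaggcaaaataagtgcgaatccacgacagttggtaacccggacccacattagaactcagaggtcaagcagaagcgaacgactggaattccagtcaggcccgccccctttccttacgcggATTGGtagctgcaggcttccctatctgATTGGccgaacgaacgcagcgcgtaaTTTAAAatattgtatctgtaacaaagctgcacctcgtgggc
ASPM: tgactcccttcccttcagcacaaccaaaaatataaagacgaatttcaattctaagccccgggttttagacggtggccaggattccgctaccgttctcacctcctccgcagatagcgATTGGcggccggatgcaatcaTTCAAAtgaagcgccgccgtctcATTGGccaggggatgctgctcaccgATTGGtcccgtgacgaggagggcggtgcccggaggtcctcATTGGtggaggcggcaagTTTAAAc
MKI67, the proliferation marker, had 6627 and 4039 in the MS177 libraries, against 18086 and 11738 in the C24 libraries and 7535 and 10911 in the DMSO libraries, and ASPM, a spindle pole protein, had 4943 and 3765 in the MS177 libraries, against 11565 and 9961 in the C24 libraries and 7628 and 9863 in the DMSO libraries. Their differences were -1.49 ± 0.30 (adjusted p = 0.0092, limma) and -1.31 ± 0.18 (adjusted p = 0.00215, limma), with the MS177 libraries below all others. MKI67 lost its call without C24 replicate 1. All of these promoters held a CHR word and CCAAT, against 21.9% of all promoters for the CHR words and 32.0% for CCAAT, and in MKI67 a CHR word and a CCAAT share letters.

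In the S-phase and E2F list the median difference was smaller. Of 49 genes tested, 14 were lower with MS177 than with C24, beside 17.6% of all genes, with a median of -0.15. The count was 5 without C24 replicate 1, 7 without C24 replicate 2 and 8 without MS177 replicate 2. E2F2, an activator of S-phase genes, had 515 and 549 in the MS177 libraries, against 1609 and 1481 in the C24 libraries and 1339 and 1505 in the DMSO libraries, with the MS177 libraries far below the rest (-1.54 ± 0.13, adjusted p = 0.000281, limma). RRM2, a ribonucleotide reductase subunit (-0.63 ± 0.11), UHRF1, a maintenance factor of DNA methylation (-0.78 ± 0.13), the dNTPase SAMHD1 (-0.62 ± 0.12) and the repressor E2F8 (-0.94 ± 0.19) were lower, of which UHRF1, SAMHD1 and E2F8 lost their calls without C24 replicate 1. E2F1 had 5378 and 6903 with MS177, 5783 and 6429 with C24 and 7287 and 6801 with DMSO, with overlapping groups and a difference whose 95% interval ran from -0.35 to 0.34. E2F3 (0.12 ± 0.14), E2F7 (0.13 ± 0.21), RB1 (0.28 ± 0.18), RBL1 (-0.09 ± 0.17) and TFDP1 (-0.29 ± 0.11) did not pass. In the DNA repair and checkpoint list 1 of 22 genes was higher, PALB2 (0.45 ± 0.12), and 3 were lower, FANCI (-0.44 ± 0.13), FANCD2 (-0.50 ± 0.15) and FANCB (-0.61 ± 0.16), and the share called was under the 33.4% of all genes, and every one of these calls was lost with either C24 library left out.

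Cell-cycle brakes and p53 targets went both ways, with 5 of 27 higher and 7 lower, shares near the 15.9% and 17.6% of all genes. GADD45A, a stress-induced growth arrest gene, had 10550 and 13427 in the MS177 libraries, against 2326 and 3089 in the C24 libraries and 2694 and 2503 in the DMSO libraries, and BTG1, an antiproliferative gene, had 5214 and 5544 in the MS177 libraries, against 969 and 1076 in the C24 libraries and 1303 and 1044 in the DMSO libraries. Both were high in the MS177 libraries alone, with 2.15 ± 0.18 (adjusted p = 0.000281, limma) and 2.40 ± 0.14 (adjusted p = 8.1e-05, limma). PLK3, a stress-responsive kinase, was higher by 1.66 ± 0.13. CDKN1C, a CDK inhibitor, had 31.8 and 38.7 in the MS177 libraries, against 305 and 326 in the C24 libraries and 292 and 189 in the DMSO libraries. CDKN2C, an inhibitor of CDK4 and CDK6, had 10178 and 12455 in the MS177 libraries, against 27264 and 31299 in the C24 libraries and 37654 and 32513 in the DMSO libraries. Both were lowest with MS177, at -3.13 ± 0.24 (adjusted p = 0.000216, limma) and -1.38 ± 0.16 (adjusted p = 0.00101, limma). BTG2, a p53 target, was lower (-1.92 ± 0.18), in the opposite direction to BTG1.

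MYC was higher with MS177, as were genes of ribosome biogenesis. MYC had 9218 and 8464 in the MS177 libraries, against 4302 and 3393 in the C24 libraries and 3685 and 3883 in the DMSO libraries, with C24 and DMSO overlapping and both MS177 libraries above them (1.21 ± 0.14, 95% interval 0.88 to 1.54, adjusted p = 0.00113, limma). Of 45 genes of the MYC and ribosome biogenesis list 26 were higher and 3 lower, with a median of 0.54, and 21 of 35 nucleolar genes were higher. The list had 13 higher and 1 lower with C24 replicate 1 left out, and 22 higher and 1 lower with C24 replicate 2 left out. MYCL, a relative of MYC, had 531 and 515 in the MS177 libraries, against 113 and 98.1 in the C24 libraries and 73.9 and 94.6 in the DMSO libraries, a difference of 2.30 ± 0.19 (adjusted p = 0.000265, limma). DDX21, a nucleolar helicase (1.18 ± 0.12), and RRP12 of ribosome assembly (1.07 ± 0.11) were higher. The MYC antagonists MXD4 (-1.21 ± 0.14), MXD3 (-0.95 ± 0.25) and MNT (-0.60 ± 0.18) were the genes of the list that were lower, MXD3 and MNT not in every setting.

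The ribosomal protein and histone lists had positive medians with MS177 and negative medians with C24, both against DMSO, and their counts of calls depended on single libraries. The 52 cytosolic ribosomal protein genes had a median of 0.68 between the compounds, and medians against DMSO of 0.34 with MS177 and -0.32 with C24. Of them 23 were higher with MS177 than with C24 and 0 lower, beside 15.9% and 17.6% of all genes. Leaving out MS177 replicate 1 gave 45 and leaving out MS177 replicate 2 gave 8, while 1 was called with C24 replicate 1 left out and 10 with C24 replicate 2 left out. RPL12 had 32525 and 41073 in the MS177 libraries, against 16868 and 19194 in the C24 libraries and 23957 and 19729 in the DMSO libraries (1.02 ± 0.17, adjusted p = 0.00418, limma), and many ribosomal protein genes have pseudogenes that can share their reads. Of 42 replication-dependent histone genes 16 were higher with MS177 than with C24 and 0 lower, beside 15.9% and 17.6% of all genes. The share called, 38.1%, was near the 33.4% of all genes. Their median was 0.92, against 0.32 with MS177 and -0.51 with C24 relative to DMSO. H2AC6 had 2776 and 3187 in the MS177 libraries, against 692 and 757 in the C24 libraries and 1566 and 1302 in the DMSO libraries, with C24 lowest, DMSO between and MS177 highest (2.04 ± 0.14, adjusted p = 0.000144, limma). H4C14 (1.54 ± 0.18), H1-2 (1.49 ± 0.21) and H2BC21 (1.18 ± 0.17) showed the same order. The count was 9 without MS177 replicate 2 and 10 with either C24 library left out. Histone transcripts mostly lack poly(A) tails, and copies of a histone gene resemble each other, so these values are uncertain.

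Cytokines were high with MS177 and not with C24, while the NF-kB subunits NFKB1, NFKB2, RELA, RELB and REL did not pass. Of 31 genes of the NF-kB and cytokine list 15 were higher with MS177 than with C24 and 4 lower, with a median of 0.67, and 11 of 15 cytokine and chemokine genes were higher, with a median of 2.34. The lower count was 2 without MS177 replicate 2 and 1 without C24 replicate 1. IL6, an inflammatory cytokine, had 3642 and 4079.7 in the MS177 libraries, against 92.1 and 112 in the C24 libraries and 155 and 96.7 in the DMSO libraries. CXCL8, a neutrophil chemokine, had 2660.1 and 3153 in the MS177 libraries, against 289 and 381 in the C24 libraries and 517 and 473 in the DMSO libraries. TSLP, an epithelial cytokine, had 296 and 332 in the MS177 libraries, against 12.6 and 12.4 in the C24 libraries and 12.7 and 10.4 in the DMSO libraries. MS177 libraries were the highest in each of them, and C24 libraries lay within or under the range in DMSO for each of them. The differences were 5.23 ± 0.23 (adjusted p = 3.06e-05, limma) for IL6, 3.12 ± 0.17 (adjusted p = 6.71e-05, limma) for CXCL8 and 4.54 ± 0.26 (adjusted p = 6.99e-05, limma) for TSLP. CXCL2, another chemokine (2.41 ± 0.15), and TRAF1, an adaptor of TNF receptors (2.90 ± 0.21), were higher as well.

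NFKB1 had 2403 and 1858 with MS177, 2454 and 2189 with C24 and 2106 and 2190.5 with DMSO, and RELA, the main activating subunit, had 4223 and 3372 with MS177, 3659 and 2984 with C24 and 2873 and 3403 with DMSO. Their groups overlapped, and the differences were -0.13 ± 0.15 (adjusted p = 0.524, limma) and 0.19 ± 0.17 (adjusted p = 0.409, limma). NFKB2 (0.11 ± 0.11), RELB (-0.19 ± 0.11), REL (-0.65 ± 0.30) and the feedback inhibitor TNFAIP3 (-0.16 ± 0.18) did not pass either. NFKBIZ, a nuclear co-regulator of IL6, was higher by 1.29 ± 0.17. NFKBIA, which holds NF-kB in the cytoplasm, was lower (-0.61 ± 0.15), as were BCL3 (-0.60 ± 0.13) and the macrophage growth factor CSF1 (-0.60 ± 0.16), each with its call lost in some settings.

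Most interferon-stimulated genes that passed the test were lower with MS177. Of 36 tested, 20 were lower with MS177 than with C24 and 3 higher, with a median of -0.79. The lower count was 6 without C24 replicate 1 and 13 without MS177 replicate 1. IFIT1, an antiviral RNA-binding protein, had 40.2 and 43.6 in the MS177 libraries, against 197 and 195 in the C24 libraries and 218 and 145 in the DMSO libraries. OAS3, which makes the messenger of RNase L, had 222 and 158 in the MS177 libraries, against 697 and 544 in the C24 libraries and 444 and 493 in the DMSO libraries. The MS177 libraries were the lowest in both, with -2.20 ± 0.23 (adjusted p = 0.000698, limma) and -1.71 ± 0.21 (adjusted p = 0.00123, limma). USP18 (-1.31 ± 0.15) and PARP9 (-1.26 ± 0.16) were lower too. The 3 that were higher were IRF1, a transcription factor (0.82 ± 0.12), ISG20 (1.69 ± 0.27) and XAF1 (1.59 ± 0.25). Of 17 genes of MHC class I presentation 6 were lower, beside 17.6% of all genes, with a median of -0.33, and without C24 replicate 1 the number was 3. TAPBP, the chaperone tapasin of peptide loading, had 3919 and 3438 in the MS177 libraries, against 9530.5 and 7428 in the C24 libraries and 7366 and 8113 in the DMSO libraries (-1.20 ± 0.15, adjusted p = 0.00152, limma). NLRC5, the transactivator of class I genes, had 155 and 140.4 in the MS177 libraries, against 481 and 340.3 in the C24 libraries and 299 and 324 in the DMSO libraries (-1.45 ± 0.19, adjusted p = 0.00184, limma), and the peptide transporter TAP1 differed by -0.75 ± 0.11.

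Developmental transcription factors that Polycomb marks in many cell types, and that loss of H3K27 methylation can raise, were mostly lower with MS177 than with C24. Of 68 tested, 43 were lower and 3 higher, with a median of -0.76, and against DMSO the medians were -0.68 with MS177 and 0.13 with C24. With C24 replicate 1 left out, 26 were lower and 2 higher. EN1, a homeobox factor, had 508 and 498 in the MS177 libraries, against 1622 and 1555 in the C24 libraries and 1905 and 1912 in the DMSO libraries. SIX2, another, had 798 and 786 in the MS177 libraries, against 2128 and 1969 in the C24 libraries and 1924 and 1789 in the DMSO libraries. FOXC1, a forkhead factor of basal-like breast cancer, had 1571 and 1524 in the MS177 libraries, against 3578 and 3637 in the C24 libraries and 3239.6 and 3238 in the DMSO libraries. MS177 libraries were the lowest for all of them and C24 lay nearer to DMSO, with differences of -1.66 ± 0.11 (adjusted p = 0.000124, limma) for EN1, -1.37 ± 0.12 (adjusted p = 0.000303, limma) for SIX2 and -1.22 ± 0.11 (adjusted p = 0.000331, limma) for FOXC1. SOX8 had 47.7 and 64.9 in the MS177 libraries, against 304 and 281 in the C24 libraries and 738 and 548 in the DMSO libraries, with the C24 libraries between the others (-2.37 ± 0.22, adjusted p = 0.000398, limma between the compounds and -1.12 ± 0.22, adjusted p = 0.29, limma for C24 against DMSO). The genes that were higher were ISL2 (1.11 ± 0.15), PAX8 (0.75 ± 0.14) and SOX7 (0.66 ± 0.20, lost in some settings).

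In the HOX clusters 14 of 28 genes were lower and 2 higher, with a median of -0.44, and 6 were lower without C24 replicate 1 and 9 without C24 replicate 2. Over all genes, 17.6% were lower and 15.9% higher. HOXC13 had 219.7 and 204 in the MS177 libraries, against 827 and 774 in the C24 libraries and 716 and 687 in the DMSO libraries. HOXB13 had 180.4 and 207 in the MS177 libraries, against 594 and 503 in the C24 libraries and 549 and 487 in the DMSO libraries. Both were low in the MS177 libraries alone, with differences of -1.91 ± 0.13 (adjusted p = 0.000118, limma) and -1.49 ± 0.16 (adjusted p = 0.000704, limma). HOXC10 (-1.11 ± 0.14) and HOXB8 (-1.34 ± 0.15) were lower as well, whereas HOXB9 (1.62 ± 0.26) and HOXB2 (0.42 ± 0.13, lost in 10 of 20 settings) were higher.

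Genes of cell identity and matrix changed in a mixed way. Of 20 EMT regulators 8 were lower and 2 higher, beside 17.6% and 15.9% of all genes, with a median of -0.31. Leaving out C24 replicate 1 left 5 lower and 1 higher, and leaving out MS177 replicate 1 left 8 lower. TWIST1 had 2229 and 2361 in the MS177 libraries, against 4543 and 4837 in the C24 libraries and 4602 and 4327 in the DMSO libraries. SNAI1 had 74.8 and 56.2 in the MS177 libraries, against 196 and 184 in the C24 libraries and 209 and 237 in the DMSO libraries. Both EMT-driving factors were lowest with MS177 (-1.03 ± 0.11, adjusted p = 0.000781, limma and -1.54 ± 0.20, adjusted p = 0.00159, limma), but CDH1, the epithelial cadherin that they repress, was lower too, at 136 and 133 in the MS177 libraries, against 777 and 631 in the C24 libraries and 606 and 677 in the DMSO libraries (-2.37 ± 0.15, adjusted p = 0.00011, limma). ESRP1, an epithelial splicing factor, had 139 and 140.4 in the MS177 libraries, against 4.85 and 8.05 in the C24 libraries and 7.39 and 9.36 in the DMSO libraries, and was high in the MS177 libraries alone (4.28 ± 0.36, adjusted p = 0.000298, limma). ZEB1 differed by 0.07 ± 0.14 and did not pass.

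KRT5, a basal keratin, had 85.1 and 75.5 in the MS177 libraries, against 897 and 816 in the C24 libraries and 611 and 528 in the DMSO libraries, with MS177 lowest (-3.40 ± 0.15, adjusted p = 3.04e-05, limma). The sum of the basal keratinocyte markers in both tables was 113.1 and 100.7 with MS177, 943.8 and 865.7 with C24 and 655.7 and 569.7 with DMSO. KRT14 of the same list had 19.6 and 19.4 with MS177, 17.4 and 23.4 with C24 and 25.3 and 13.5 with DMSO, with overlapping groups. The luminal keratins KRT8 and KRT18 were higher with MS177 than with C24. KRT8 stood at 807 and 1019 with MS177 and 331 and 485 with C24 (1.18 ± 0.21), and KRT18 differed by 0.66 ± 0.14 (lost in 2 settings). GATA3, a luminal factor, was lower (-0.96 ± 0.11). The 6 luminal markers tested summed to 27137 and 32184 with MS177, 22505 and 22962 with C24 and 27876 and 25334 with DMSO. MS177 thus overlapped DMSO in this sum. Against DMSO, 1 of the 6 was higher with MS177 and 2 were lower. Of 51 extracellular matrix genes 11 were higher and 17 lower, beside 15.9% and 17.6% of all genes, with a median of -0.23. Without MS177 replicate 2 the lower count was 11, and without C24 replicate 1 it was 7. CSPG4, a cell-surface proteoglycan, had 617 and 429.9 in the MS177 libraries, against 5325 and 3738 in the C24 libraries and 3865 and 4464 in the DMSO libraries, and COL3A1, a fibrillar collagen, had 6091 and 4732 in the MS177 libraries, against 20909 and 17499 in the C24 libraries and 14309 and 15727 in the DMSO libraries. Both were lowest with MS177 (-3.11 ± 0.22, adjusted p = 0.000162, limma and -1.83 ± 0.16, adjusted p = 0.000364, limma). MMP2 was lower (-1.11 ± 0.15). COL7A1 (1.65 ± 0.15), TIMP3 (2.07 ± 0.21) and the plasminogen activator PLAU (1.50 ± 0.11) were higher. In the TGF-beta family 8 of 20 genes were higher and 5 lower, beside 15.9% and 17.6% of all genes. TGFB2 (-1.76 ± 0.17), TGFB3 (-1.85 ± 0.22) and SMAD6 (-1.0 ± 0.12) were lower, and BMP6 (0.93 ± 0.14) and the SMAD antagonist SKIL (1.81 ± 0.17) were higher.

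Targets of growth factor signalling through MAPK were higher with MS177. Of 28 immediate early and MAPK feedback genes 19 were higher and 1 lower, with a median of 0.75. DUSP6, the phosphatase that switches off ERK, had 2704 and 2541 in the MS177 libraries, against 466 and 469.8 in the C24 libraries and 482 and 467 in the DMSO libraries. PHLDA1 had 16201 and 15300 in the MS177 libraries, against 2714 and 2552 in the C24 libraries and 2816 and 2783 in the DMSO libraries. IER3, an early response gene, had 14787 and 17480 in the MS177 libraries, against 1504 and 1663 in the C24 libraries and 2117 and 1642 in the DMSO libraries. MS177 libraries stood alone above the others in all of them, with 2.48 ± 0.12 (adjusted p = 3.76e-05, limma) for DUSP6, 2.58 ± 0.11 (adjusted p = 2.19e-05, limma) for PHLDA1 and 3.35 ± 0.16 (adjusted p = 3.9e-05, limma) for IER3. ETV5, an ERK-induced factor, was higher by 1.85 ± 0.13, and EGR3 was the gene that was lower (-1.17 ± 0.32, lost in some settings). Of 7 EGF receptor family genes, ERRFI1, the feedback inhibitor of the receptor (2.10 ± 0.12), and the ligand HBEGF (1.14 ± 0.15) were higher and ERBB2 lower (-0.47 ± 0.11, lost in 2 settings). The share called in this family, 42.9%, was near the 33.4% of all genes.

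Genes of cell death were mixed. Of 23 BCL2 family and death receptor genes 6 were higher and 3 lower, and the share called was near the 33.4% of all genes. BBC3, which encodes PUMA, had 946 and 1030.1 in the MS177 libraries, against 205 and 184 in the C24 libraries and 252 and 209 in the DMSO libraries. PMAIP1, which encodes NOXA, had 2596 and 2786 in the MS177 libraries, against 421 and 552 in the C24 libraries and 524 and 539.6 in the DMSO libraries. TNFRSF10B, a receptor of TRAIL, had 13533 and 12078 in the MS177 libraries, against 4119 and 3524 in the C24 libraries and 3737 and 4129 in the DMSO libraries. These death-promoting genes were high in the MS177 libraries alone (2.34 ± 0.15, adjusted p = 0.000118, limma for BBC3, 2.48 ± 0.15, adjusted p = 9.49e-05, limma for PMAIP1 and 1.75 ± 0.13, adjusted p = 0.000197, limma for TNFRSF10B), as was the survival gene BCL2L1 (0.80 ± 0.11). FAS, another death receptor, had 293 and 268 in the MS177 libraries, against 661 and 697 in the C24 libraries and 764 and 790.1 in the DMSO libraries, with MS177 lowest (-1.27 ± 0.13, adjusted p = 0.000549, limma), and the decoy receptor TNFRSF10D was lower (-1.16 ± 0.16).

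Of 27 targets of NRF2 and the aryl hydrocarbon receptor (AHR), 14 were higher with MS177 and 2 lower, with a median of 0.52, and 11 were higher without C24 replicate 1. CYP1A1, the best-known AHR target, had 778 and 737 in the MS177 libraries, against 13.6 and 12.4 in the C24 libraries and 7.39 and 6.24 in the DMSO libraries, and both MS177 libraries stood far above the rest (5.76 ± 0.24, adjusted p = 2.19e-05, limma). HMOX1, a heme-degrading NRF2 target, had 39512 and 39710 in the MS177 libraries, against 13108 and 12659 in the C24 libraries and 10217 and 10218 in the DMSO libraries (1.62 ± 0.11, adjusted p = 0.00014, limma), and SLC7A11, the cystine transporter that ATF4 also drives, had 5267 and 4407 in the MS177 libraries, against 906 and 921 in the C24 libraries and 795 and 884 in the DMSO libraries (2.40 ± 0.13, adjusted p = 6.86e-05, limma). AKR1C1 was higher by 2.96 ± 0.29. Beside the 14 higher and 2 lower of this list, 15.9% of all genes were higher and 17.6% lower. Of 39 lysosome and autophagy genes 15 were higher and 3 lower, beside 15.9% and 17.6% of all genes. Among the higher were MAP1LC3B, the autophagosome marker (1.82 ± 0.12), the protease CTSL (1.42 ± 0.16) and WIPI1 (1.04 ± 0.13). TFEB, which drives lysosomal genes, had 35.5 and 46.5 in the MS177 libraries, against 103 and 102 in the C24 libraries and 181 and 146 in the DMSO libraries. It was lower with MS177 than with C24 (-1.31 ± 0.22, adjusted p = 0.00464, limma). The lower count was 1 with either C24 library left out. Of 21 heat shock genes 7 were lower and 2 higher, beside 17.6% and 15.9% of all genes. The higher genes, HSF1 and HSPD1, lost their calls in some settings. HSPA1A had 7260.5 and 7779 in the MS177 libraries, against 19130 and 18496 in the C24 libraries and 17290 and 16958 in the DMSO libraries (-1.32 ± 0.11, adjusted p = 0.000322, limma). Its near-identical copy HSPA1B differed by -1.07 ± 0.12, and reads of the 2 copies may be shared.

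The machinery that a PROTAC uses was examined through ubiquitin ligase and proteasome genes. Of 15 ubiquitin ligase genes of the cereblon and VHL complexes 3 were higher with MS177 than with C24, beside 15.9% of all genes, with a median of 0.19. The number was 5 without MS177 replicate 1, 1 without MS177 replicate 2 and 1 without C24 replicate 1. VHL had 12948 and 16172 in the MS177 libraries, against 5479 and 6543 in the C24 libraries and 7579.6 and 6598 in the DMSO libraries, with MS177 highest (1.27 ± 0.16, adjusted p = 0.00142, limma). CRBN, which encodes cereblon, had 1537 and 1748 in the MS177 libraries, against 1092 and 1268 in the C24 libraries and 1528 and 1462 in the DMSO libraries, with its MS177 libraries above C24 and just above DMSO (0.48 ± 0.13, adjusted p = 0.0295, limma, lost in 7 of 20 settings). COPS5 of the COP9 signalosome had 5897 and 7730.5 with MS177, 3665 and 4986 with C24 and 6638 and 5210 with DMSO. Its MS177 libraries overlapped DMSO, and it differed between the compounds by 0.66 ± 0.21, a call lost in 5 settings. Of 32 proteasome genes 1 was higher and 3 lower, beside 15.9% and 17.6% of all genes. The calls of the lower genes were all lost with any 1 of the MS177 and C24 libraries left out, and 5 were higher without MS177 replicate 1. NFE2L1, the factor that induces proteasome genes, had 20607 and 17307 in the MS177 libraries, against 10542 and 8922 in the C24 libraries and 7860.4 and 9189 in the DMSO libraries (0.96 ± 0.15, adjusted p = 0.00361, limma), and PSMB2 (-0.47 ± 0.11), PSMD3 (-0.43 ± 0.12) and PSMD11 (-0.32 ± 0.11) were lower, and PSMD11 lost its call in 13 of 20 settings.

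Among 31 glycolysis and hypoxia genes 6 were lower and 2 higher, beside 17.6% and 15.9% of all genes, with ALDOC (-1.09 ± 0.17), PFKFB4 (-1.12 ± 0.16) and the oxygen sensor EGLN3 (-1.69 ± 0.16) lower and PDK1 higher (1.04 ± 0.13). Leaving out C24 replicate 1 left 3 lower and 1 higher. Of 13 mitochondrially encoded transcripts 3 were lower, MT-ND2 (-0.93 ± 0.22), MT-ATP8 (-0.71 ± 0.17) and MT-ND5 (-0.95 ± 0.27), with a median of -0.57, and each of these calls was lost without MS177 replicate 2 or C24 replicate 1. The count was 6 without MS177 replicate 1 or C24 replicate 2.

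**Figure D4:**
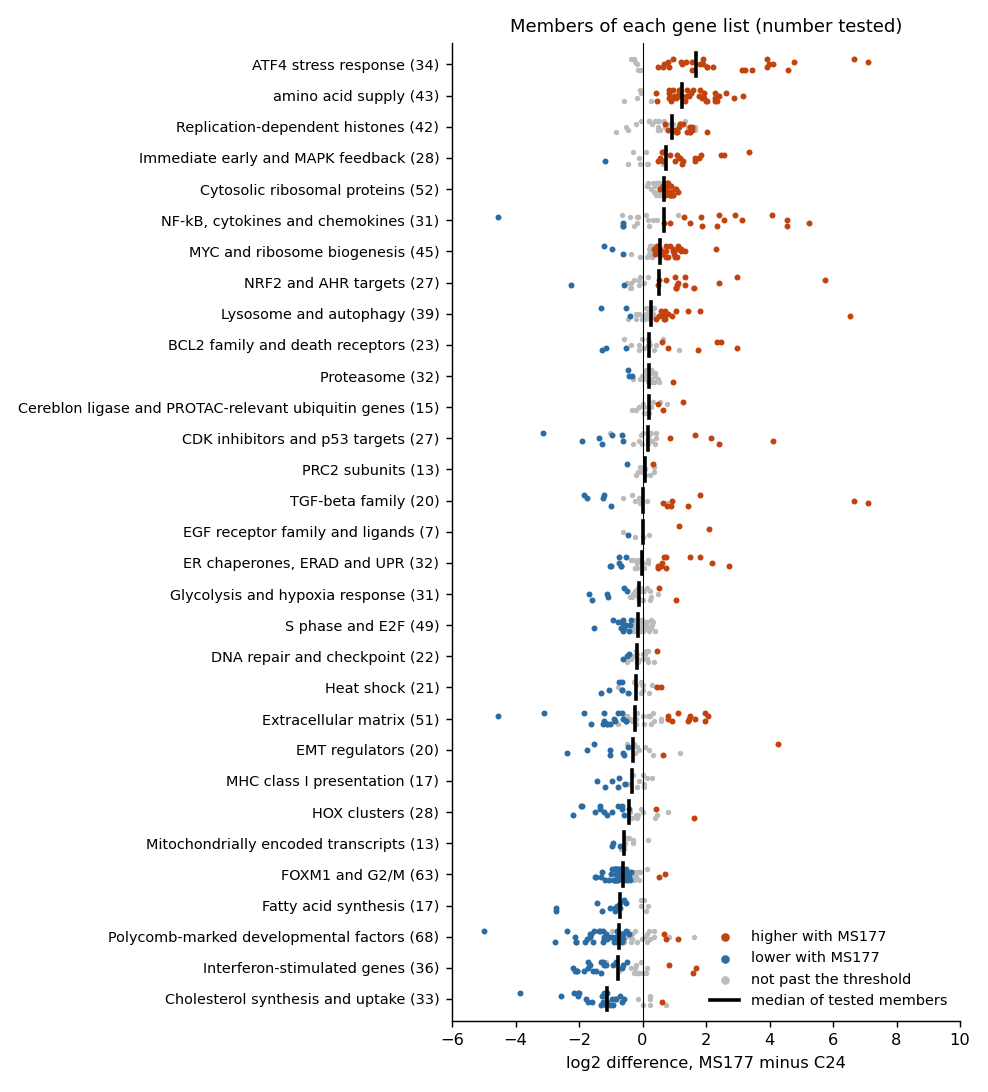
Log2 difference of MS177 minus C24 (horizontal axis) for every tested member of the gene lists (rows), coloured by call, with a bar at the median of the members. ATF4 stress response and amino acid supply genes lie to the right of 0, with medians of 1.70 and 1.24, and cholesterol genes to the left, with a median of -1.12.

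**Figure D5:**
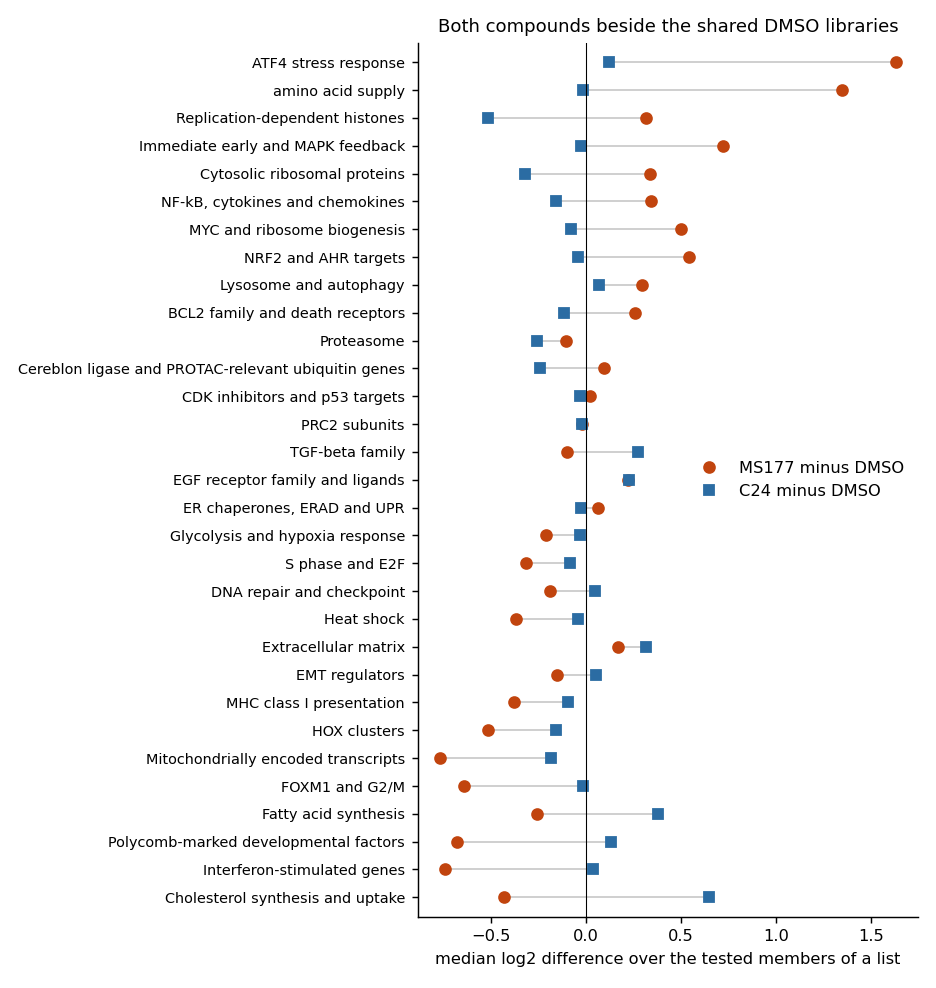
Median log2 difference of each gene list (rows) against the same 2 DMSO libraries, with MS177 and C24 as separate points. C24 points lie close to 0 for most lists, such as 0.12 for the ATF4 stress response, and stand highest for cholesterol synthesis and uptake, at 0.65.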

How the data were processed

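The members and gene lists were chosen with earlier results of these data known. The authors deposited one table per compound with a log2 value per gene and library. RSEM, DESeq and the build hg38 are named, per the submitters' processing notes; versions, aligner and the transform's settings are not given in the sources used here. The deposited log2 values matched a variance-stabilising transform and were inverted exactly to normalized counts: 100% of values up to 1000 reads came out whole within 0.05 reads. Tables held genes with at least 10 reads summed over their 4 libraries. The C24 table was put on the scale of the MS177 table by the factor 0.942 from the shared DMSO libraries, whose reads were equal in both tables for 100% of genes. Values of log2(normalized count + 1) were fitted with limma 3.58.1 in R 4.3.3 (mean trend, robust variances, 1 model with 3 groups, two-sided), for genes that reached 10 normalized counts in 2 or more libraries; the deposited unit is log2, so limma on log values was the main test, and voom on the whole reads recovered from it was an alternative. Genes were named by rule: always EZH2, EZH1, EED, SUZ12, FOXM1 and MYC; the 12 largest rises and falls past the threshold with at least 100 normalized counts in the higher group; up to 6 each way for C24 against DMSO; and up to 4 members of each list each way by adjusted p, with its regulators and the genes changed in opposite directions. MKI67 and ASPM are named through the promoter rule, and LIPG, BMS1P4-AGAP5, ZBTB45P2 and TGFB2-OT1 as the rest of the C24 calls. Some genes that the rule names are not reported here. The code was tested on simulated data. Whether counting used strand is not given in the sources used here, and 122 of the 251 named genes overlap a gene on the opposite strand, whose reads could then not be told apart. Coordinates of genes are from GENCODE v29 on hg38.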

Additional observations from a re-analysis of the deposited data

Results flagged for a closer look

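Genes listed in only one of the compared tables took no part in the comparison. Of the 459 genes listed only in the MS177 table, 4 had at least 100 normalized counts in both MS177 libraries. The lower of the 2 MS177 libraries had 163 normalized counts for RPLP0P2, 154 for TUNAR, 138 for AC034213.1 and 125 for ASNSP1. RPLP0P2 and ASNSP1 are pseudogenes of RPLP0 and ASNS. ASNS had 13700 and 14078 in the MS177 libraries, against 870.2 and 970.4 in the C24 libraries and 1112 and 1030.3 in the DMSO libraries, and RPLP0 had 86542 and 119730 in the MS177 libraries, against 51581 and 57030 in the C24 libraries and 76170 and 59700 in the DMSO libraries. Of the 490 genes listed only in the C24 table, the highest had 25.6 normalized counts in its lower C24 library. A table omits genes under its minimum, so the level of these genes with the other compound is not known beyond that.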

How the results depend on the processing

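The count of genes that differed between MS177 and C24 was 5494, and 18 of 20 alternatives left it within 1.5 times. With the replicate number as a block it was 4398 (3570 for MS177 against DMSO and 2 for C24 against DMSO). The labels give no shared origin to equal numbers, and deviations of same-numbered libraries correlated at 0.57 between MS177 and C24 but at -0.73 and -0.49 between these and DMSO, so the numbers were not taken as pairs. With the DMSO numbers crossed, an alternative chosen after seeing the data, the counts were 9397, 8841 and 3005. Leaving out 1 library gave 2255 to 5260 genes for MS177 against C24, 2720 to 3913 for MS177 against DMSO and 1 to 20 for C24 against DMSO. The 11 genes called between C24 and DMSO became 24 with only those libraries, 17 with all 10 BT-549 libraries, 3 on the deposited log2 values, 4 with at least 50 normalized counts, 5 with voom and 2 without trend and robust variances. Scaling to the total of listed genes moved the median gene by -0.10. Of 211 named genes called between MS177 and C24, 149 were tested and called in every one of 20 settings, 3 more were called wherever they were tested, and 0 changed direction (limma, two-sided). Having 2 libraries a group and unknown culture replication limits the precision.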

Other observations

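The series also holds BT-549 libraries treated with MS177N1 and MS177N2, which were not compared here. For 4 genes that moved in opposite directions with MS177 and C24, levels are given as values only. SCD averaged 24777 normalized counts with MS177N1 and 28497 with MS177N2, HMGCS1 2675 and 2518, INSIG1 3058 and 3008, and MVK 1003 and 981 (n = 2 libraries each). The means with DMSO and C24 were 15326 and 48659 for SCD, 1787 and 5129 for HMGCS1, 2488 and 5518 for INSIG1 and 857 and 1908 for MVK. The means with MS177N1 and MS177N2 thus lay between those of DMSO and C24, with MVK overlapping DMSO for MS177N2. These differences were not tested.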
